A study of Homo sapiens with 18 samples.

Results

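The glycolysis and hypoxia-inducible genes are 38 genes, matched by symbol among the 20145 genes of the table. They hold 22 genes of glucose use, namely 2 membrane carriers, 17 enzymes of glycolysis and lactate formation, and 3 enzymes that make or degrade fructose 2,6-bisphosphate. The other 16 are HIF (hypoxia-inducible factor) genes, namely 2 pyruvate dehydrogenase kinases, 2 oxygen-sensing hydroxylases, HIF1A itself and 11 further HIF targets. All 38 passed the filter on low counts. Messenger RNA was sequenced from LNCaP, an androgen-sensitive human prostate adenocarcinoma line first grown from a lymph node metastasis. Each exposure lasted 72 h. The dose of 2-77 was 1 µM and that of ACBI was 0.2 µM, BD98 was used at 2 µM, both P-16 (PB16 in the dosing text) and ENZA at 10 µM, and DMSO was the vehicle control, with 3 libraries in each of the 6 groups. ENZA is the usual short form of enzalutamide, a drug used against prostate cancer, and the study's title concerns inhibitors of the BRD7 bromodomain. For the compounds other than ENZA the labels state no target. All groups share a single cell line, serum-containing medium and a single time, and the labels name no hypoxic culture. Nothing in them ties the 3 libraries of a group to independent cultures, and p-values therefore measure only the spread among these libraries, which may be technical. Doses differed between compounds except for P-16 and ENZA, so any difference between compounds is a difference at these doses.

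Glycolysis splits glucose into pyruvate, and lactate dehydrogenase turns pyruvate into lactate, which is exported. HIF is a transcription factor whose alpha subunit (HIF1A or EPAS1) is hydroxylated by the EGLN enzymes and degraded when oxygen is present, and it accumulates when oxygen is scarce. It binds short DNA sites with the core ACGTG or GCGTG and raises transcription of many glycolytic enzymes, of PDK1, which keeps pyruvate out of the mitochondria, and of genes such as VEGFA and CA9. HIF1A is controlled largely at the protein level, which RNA counts do not measure. Healthy prostate epithelium is known for secreting citrate.

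Library totals ran between 16835093 and 36975028 counts. Ribosomal RNA took 8.60% of the counts of ACBI replicate 3 and between 0.639% and 2.09% of the other 17 libraries. The luminal prostate markers used here (KRT8, KRT18, HOXB13, KLK3, FOLH1 and EPCAM, 6 genes) were detected in each library and summed to 3968 to 4075 CPM (counts divided by the TMM-scaled library size, on the usual CPM scale) with 2-77, 3036 to 3162 with ACBI, 4724 to 4931 with BD98, 5491 to 5522 with P-16, 4447 to 4543 with ENZA and 7072 to 7189 in DMSO. Their sum was lower than in DMSO in each treated group, whichever way most members moved, and its part in the results below was not tested. Across all libraries KLK3 ran between 626 and 4325 CPM and FOLH1 between 752 and 1970. The ranges were narrower for KRT8 (400 to 593), KRT18 (244 to 346), HOXB13 (555 to 775) and EPCAM (86.7 to 105). The 9 basal, fibroblast, immune and endothelial markers in the table summed to between 20.1 and 79.3 CPM. In bulk RNA, fewer cells that express a gene and less of its RNA per cell cannot be told apart.

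Most members rose with 2-77 and with P-16. More members fell than rose with ACBI, more rose than fell with ENZA, and they were split with BD98. With 2-77, 32 of 38 members rose and 1, HK2, fell, at an adjusted p under 0.05 in edgeR's quasi-likelihood test (called a pass below). Of all 15422 genes tested, 40.7% passed with 2-77, 20.5% upward and 20.2% downward. With P-16, 33 members rose and 1, PFKFB2, fell, where 24.0% of all genes passed, 12.4% upward and 11.6% downward. With ACBI, 10 members rose and 23 fell, where 72.0% of all genes passed, 35.4% upward and 36.6% downward, and the counts were the same without ACBI replicate 3. With BD98, 13 rose and 10 fell, where 49.0% of all genes passed, 24.5% in each direction. With ENZA, 19 rose and 7 fell, where 36.3% of all genes passed, 18.2% upward and 18.1% downward. The median log2 fold change of the 38 members was 0.46 with 2-77, -0.27 with ACBI, 0.00 with BD98, 0.46 with P-16 and 0.11 with ENZA. The medians of all genes tested lay between -0.01 and 0.00. These 5 comparisons share the same 3 DMSO libraries.

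**Figure D1:**
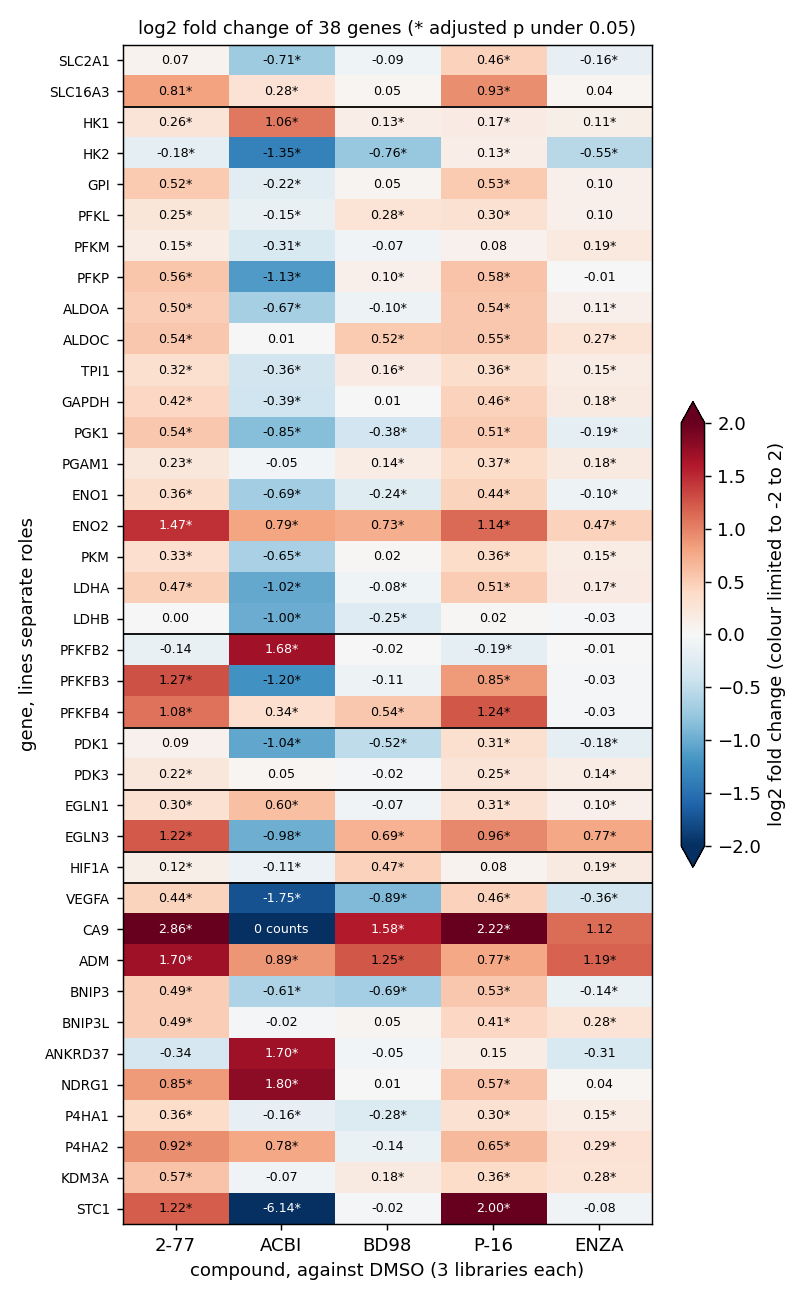
log2 fold change of each of the 38 genes (rows, by role) with each compound (columns) against DMSO, from edgeR, with an asterisk where the adjusted p was under 0.05 and colour limited to between -2 and 2. Red fills most of the 2-77 and P-16 columns, while blue fills most of the enzyme rows of the ACBI column; CA9 had 0 counts in the 3 ACBI libraries.

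Both classes of members took part. With 2-77, 18 of the 22 glucose-use genes rose and 1 fell, and 14 of the 16 other HIF genes rose. With P-16 the counts were 19 up and 1 down of 22, and 14 up of 16. With ACBI, 5 of the 22 glucose-use genes rose and 15 fell, while 5 of the 16 other HIF genes rose and 8 fell. With BD98, 8 rose and 6 fell of 22, and 5 rose and 4 fell of 16. With ENZA, 10 rose and 4 fell of 22, and 9 rose and 3 fell of 16.

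2-77 and ACBI moved 19 members in opposite directions, all of them up with 2-77 and down with ACBI. Among all genes tested, 5.06% went up with 2-77 and down with ACBI, 4.23% went down with 2-77 and up with ACBI, and 9.29% did either. The second pattern was shown by 0 members with edgeR and 0 with DESeq2, and by 1, PFKFB2, at an unadjusted p under 0.05. The 19 were the enzymes GPI, PFKL, PFKM, PFKP, ALDOA, TPI1, GAPDH, PGK1, ENO1, PKM and LDHA, the regulator PFKFB3, and the HIF genes EGLN3, HIF1A, VEGFA, CA9, BNIP3, P4HA1 and STC1. Both calls of HIF1A rested on single libraries, as given with its values below. Only PFKFB3, EGLN3, CA9 and STC1, 4 members, changed by at least 1.5-fold both ways. Another 9 members moved the same way with both compounds (SLC16A3, HK1, HK2, ENO2, PFKFB4, EGLN1, ADM, NDRG1 and P4HA2).

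Promoter windows of some of these opposite movers are printed because they show the letters that HIF is known to bind. The windows run 250 bases before to 50 bases after the RefSeq gene start (GRCh38.p14) and were found for 33 of the 38 members; PFKFB2, VEGFA, BNIP3L, NDRG1 and STC1 had none. The letters searched on both strands were ACGTG and GCGTG, and they are in capitals below (CACGT and CACGC are the same letters read on the other strand). The 17 opposite movers with a window were ranked by the gap between their fold changes with 2-77 and ACBI. Members that moved otherwise, ANKRD37 among them, were not ranked. Among the 4 with the largest gap, CA9 and PFKFB3 hold a match. EGLN3 and PFKP, the others, hold neither motif and are not printed. LDHA and PGK1 were added after their values were seen, for their several matches. All windows printed below therefore hold a match by choice.
CA9 (chr9:35673678-35673977, + strand): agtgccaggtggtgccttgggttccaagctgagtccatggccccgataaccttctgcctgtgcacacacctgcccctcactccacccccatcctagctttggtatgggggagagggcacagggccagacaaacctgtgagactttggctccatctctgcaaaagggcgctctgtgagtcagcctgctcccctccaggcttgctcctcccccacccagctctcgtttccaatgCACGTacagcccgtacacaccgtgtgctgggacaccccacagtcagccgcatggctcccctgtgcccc
PFKFB3 (chr10:6144671-6144970, + strand): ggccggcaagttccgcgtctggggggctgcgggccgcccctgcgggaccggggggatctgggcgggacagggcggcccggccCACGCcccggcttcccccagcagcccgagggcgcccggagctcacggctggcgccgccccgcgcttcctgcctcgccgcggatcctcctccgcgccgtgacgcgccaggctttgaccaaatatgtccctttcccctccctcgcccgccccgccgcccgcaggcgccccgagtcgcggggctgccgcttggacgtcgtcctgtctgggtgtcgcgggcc
LDHA (chr11:18394313-18394612, + strand): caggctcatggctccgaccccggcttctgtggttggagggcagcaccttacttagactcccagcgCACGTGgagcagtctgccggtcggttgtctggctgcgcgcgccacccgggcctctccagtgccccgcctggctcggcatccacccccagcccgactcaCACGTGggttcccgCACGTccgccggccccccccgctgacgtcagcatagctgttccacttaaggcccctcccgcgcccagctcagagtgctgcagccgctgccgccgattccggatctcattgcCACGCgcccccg
PGK1 (chrX:78103998-78104297, + strand): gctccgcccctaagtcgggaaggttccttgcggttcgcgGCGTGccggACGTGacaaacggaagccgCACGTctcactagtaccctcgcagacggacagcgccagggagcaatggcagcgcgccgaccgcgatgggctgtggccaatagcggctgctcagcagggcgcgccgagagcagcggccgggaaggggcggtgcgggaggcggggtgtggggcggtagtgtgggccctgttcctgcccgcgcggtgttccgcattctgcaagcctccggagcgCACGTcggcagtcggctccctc
In the deposited table (hg38) CA9 spans chr9:35673928-35681157, PFKFB3 chr10:6144921-6254648, LDHA chr11:18394389-18408425 and PGK1 chrX:78104248-78129295, and each window overlaps the listed start of its gene, all 4 of them protein-coding. The CA9 window holds 1 ACGTG just before the start, and the PFKFB3 window holds 1 GCGTG. The LDHA window holds 5 matches of ACGTG and 1 of GCGTG, and the 5 include both strands of 2 palindromes CACGTG, which contain ACGTG on each strand. The PGK1 window holds 3 ACGTG and 1 GCGTG. Over the 33 members, 24 windows (72.7%) held either motif, against 48.4% of 35116 RefSeq windows of the same length. ACGTG alone was in 14 of the 33 (42.4%), against 21.4% of all windows. Of the 17 opposite movers with a window, 13 (76.5%) held either motif. The members were chosen as glycolysis and HIF genes, and the RefSeq windows were not matched to them in base content or expression. A higher share among members is therefore not a result of these libraries. These are counts of letters, and neither a match nor its absence says whether HIF bound there.

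The glucose and lactate carriers responded differently. SLC2A1 (GLUT1), which brings glucose into the cell, averaged 112 ± 4.09 CPM with 2-77, 64.9 ± 5.74 with ACBI, 100.2 ± 3.93 with BD98, 146 ± 3.79 with P-16, 95.4 ± 0.772 with ENZA and 107 ± 3.11 in DMSO (SD, n = 3). It rose with P-16 (log2 fold change 0.46 ± 0.049 SE, adjusted p = 2.26e-08) and fell with ACBI (-0.71 ± 0.050). Its change with 2-77 did not pass (0.07 ± 0.049). Its fall with ENZA (-0.16 ± 0.049) did not pass without DMSO replicate 2 (adjusted p = 0.0602). SLC16A3 (MCT4), which exports lactate, averaged 29.2 ± 1.14 CPM with 2-77, 20.3 ± 1.02 with ACBI, 17.3 ± 0.398 with BD98, 31.8 ± 1.03 with P-16, 17.1 ± 1.15 with ENZA and 16.7 ± 0.692 in DMSO. It rose with 2-77 (0.81 ± 0.068), P-16 (0.93 ± 0.069) and ACBI (0.28 ± 0.071), and it lay within 0.05 log2 of DMSO with BD98 and ENZA, where the libraries overlapped.

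Among the 17 enzymes, 15 rose and 1 fell with 2-77, and 15 rose with P-16 while LDHB and PFKM did not pass. With ACBI 2 rose and 13 fell, with BD98 7 rose and 6 fell, and with ENZA 10 rose and 3 fell. Their summed level was 19703 ± 429 CPM with 2-77, 10456 ± 519 with ACBI, 14559 ± 274 with BD98, 20243 ± 189 with P-16, 15953 ± 144 with ENZA and 14951 ± 287 in DMSO (SD, n = 3). The lowest 2-77 or P-16 library was above each DMSO library, and each ACBI library was below them. BD98 lay just under DMSO here, but above it (15158 against 14890 CPM) when CPM was computed from unscaled library totals, so no direction is given for it. GAPDH gave between 26.2% and 29.0% of the reads in this sum in each library.

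**Figure D2:**
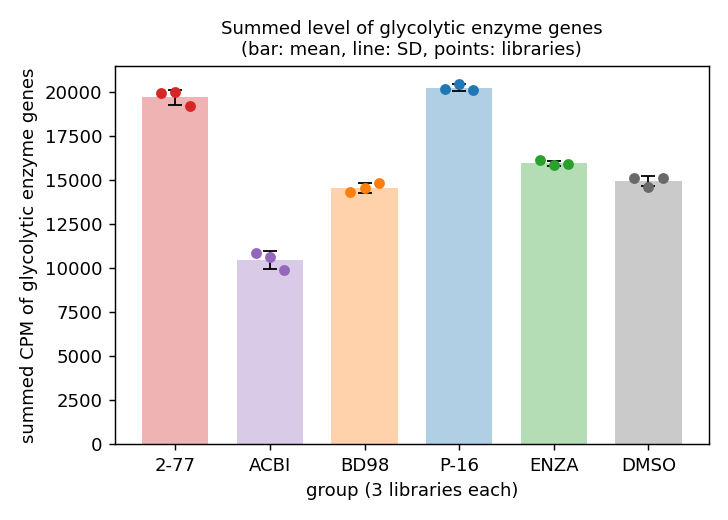
Summed level of the 17 glycolytic enzyme genes in CPM (vertical axis, from 0) in each group, with bars for the mean, lines for the SD and points for the 3 libraries. 2-77 (mean 19703) and P-16 (20243) stand above DMSO (14951), and ACBI (10456) stands below it.

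The hexokinases, which trap glucose as glucose 6-phosphate in the first step, moved against each other with ACBI. HK1 stood at 135, 137 and 128 CPM with 2-77, 235, 235 and 225 with ACBI, 118, 121 and 126 with BD98, 122, 126 and 126 with P-16, 118, 118 and 124 with ENZA, and 108, 114 and 112 in DMSO. ACBI libraries were the highest by a wide margin, and every treated library was above the DMSO libraries. HK1 rose with ACBI by 1.06 ± 0.039 on the log2 scale (adjusted p = 3.32e-20) and by 0.26 ± 0.040 with 2-77. The smaller rise with BD98 (0.13 ± 0.040) did not pass without BD98 replicate 3 (adjusted p = 0.0585), and that with ENZA (0.11 ± 0.040) did not pass without ENZA replicate 3 or DMSO replicate 1 or 3 (adjusted p between 0.0615 and 0.142). HK2, the hexokinase known as the inducible isoform of many tumours, stood at 124, 124 and 127 CPM with 2-77, 52.8, 56.4 and 56.4 with ACBI, 82.1, 83.1 and 84.9 with BD98, 155, 155 and 153 with P-16, 91.0, 96.5 and 101 with ENZA, and 142, 143 and 137 in DMSO. P-16 libraries were the highest, and those of 2-77, ENZA, BD98 and ACBI were below DMSO, with no overlap. HK2 was the member that fell with 2-77 (-0.18 ± 0.041, adjusted p = 8.65e-04). It also fell with ENZA (-0.55 ± 0.042), BD98 (-0.76 ± 0.042) and ACBI (-1.35 ± 0.043). Its rise with P-16 (0.13 ± 0.041) did not pass without P-16 replicate 2 or DMSO replicate 3 (adjusted p between 0.0588 and 0.0850). That rise did not pass with unscaled library totals either (adjusted p = 0.0577).

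The phosphofructokinase subunits, which form the committed step of glycolysis, differed in size of change. PFKP, the platelet-type subunit, stood at 219.7, 219 and 208 CPM with 2-77, 68.0, 67.3 and 65.3 with ACBI, 159, 148 and 164 with BD98, 219, 213 and 223 with P-16, 146, 144 and 146 with ENZA, and 146, 143 and 149 in DMSO. Libraries of 2-77 and P-16 lay together at the top, ACBI libraries lay below every other library, and ENZA libraries overlapped DMSO. PFKP rose with 2-77 (0.56 ± 0.039, adjusted p = 8.30e-13) and P-16 (0.58 ± 0.039) and fell with ACBI (-1.13 ± 0.041, adjusted p = 1.48e-20). With BD98 the libraries overlapped DMSO, and its call (0.10 ± 0.039) was lost without BD98 replicate 1 or 3 or DMSO replicate 1 or 2 (adjusted p between 0.0588 and 0.195). PFKL, the liver-type subunit, changed by 0.25, -0.15, 0.28, 0.30 and 0.10 on the log2 scale with 2-77, ACBI, BD98, P-16 and ENZA, and passed with all but ENZA. PFKM, the muscle-type subunit, changed by 0.15, -0.31, -0.07, 0.08 and 0.19 in the same order, and passed with 2-77, ACBI and ENZA.

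The enzymes of the middle of the pathway rose together with 2-77 and P-16. GPI (glucose 6-phosphate isomerase), ALDOA and ALDOC (aldolases), TPI1 (triose phosphate isomerase), GAPDH, PGK1 (phosphoglycerate kinase), PGAM1 (phosphoglycerate mutase) and ENO1 (enolase) each passed with both, at log2 fold changes between 0.23 (PGAM1) and 0.54 (PGK1 and ALDOC) with 2-77 and between 0.36 (TPI1) and 0.55 (ALDOC) with P-16. With ACBI, 6 of these 8 fell, between -0.85 (PGK1) and -0.22 (GPI), while ALDOC (0.01) and PGAM1 (-0.05) did not pass. PGK1, which makes the first ATP of the pathway and whose promoter is printed above, averaged 1526 ± 0.366 CPM with 2-77, 584 ± 16.6 with ACBI, 806 ± 16.2 with BD98, 1494 ± 26.1 with P-16, 921 ± 6.35 with ENZA and 1050.2 ± 19.4 in DMSO. It fell with BD98 (-0.38 ± 0.031) and ENZA (-0.19 ± 0.031), as did ENO1 with BD98 (-0.24 ± 0.034). ENO1 with ENZA (-0.10 ± 0.034) did not pass without ENZA replicate 1 or 2 or DMSO replicate 1 or 3 (adjusted p between 0.0537 and 0.0865). ALDOA with ENZA (0.11 ± 0.040) did not pass without ENZA replicate 1, 2 or 3 or DMSO replicate 1 or 2 (adjusted p between 0.0541 and 0.160). ALDOA with BD98 (-0.10 ± 0.040) did not pass without BD98 replicate 1, 2 or 3 or DMSO replicate 1 or 3 (adjusted p between 0.0614 and 0.163), nor with unscaled library totals. Values of 14 members with named pseudogenes, among them GAPDH, PGAM1, TPI1, ENO1, ALDOA, PKM, LDHA, LDHB and BNIP3, are uncertain. So are those of members whose listed span overlaps that of another gene. The overlap was on the other strand for 6 (SLC16A3, PFKM, ALDOA, TPI1, HIF1A and ANKRD37) and on the same strand for 3 (SLC2A1, PFKP and ALDOA). How shared reads and strand were counted is not given in the sources used here. Listed spans may be wider than the gene itself. The entries over SLC2A1, RNU1-1 and RNVU1-18 among them, all had the same range, 0.366 to 16.8 CPM, so that overlap may not be real. Whether the ALDOA overlaps, BOLA2 and BOLA2B among them, are real was not tested.

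ENO2, the enolase also used as a neuroendocrine marker, rose with all 5 compounds. ENO2 stood at 114, 112 and 112 CPM with 2-77, 75.2, 69.8 and 65.7 with ACBI, 66.8, 71.2 and 65.3 with BD98, 90.0, 90.0 and 89.4 with P-16, 56.6, 58.9 and 53.0 with ENZA, and 40.7, 41.8 and 39.8 in DMSO. The 3 DMSO libraries were the lowest and the 3 2-77 libraries the highest, with P-16 next, and ACBI and BD98 libraries overlapped each other. The log2 fold changes were 1.47 ± 0.051 with 2-77 (adjusted p = 6.23e-20), 0.79 ± 0.052 with ACBI, 0.73 ± 0.053 with BD98, 1.14 ± 0.052 with P-16 and 0.47 ± 0.053 with ENZA. The neuroendocrine list (CHGA, SYP, ENO2 and INSM1) had 3 of 4 genes in the table and summed to 114 to 116 CPM with 2-77, 80.9 to 88.9 with ACBI, 68.2 to 74.9 with BD98, 91.7 to 92.6 with P-16, 55.1 to 61.1 with ENZA and 41.9 to 44.3 in DMSO. Without ENO2, CHGA and SYP summed to 13.7 to 15.2 CPM with ACBI. In the libraries of the other 5 groups they summed to between 1.87 and 3.70 CPM. CHGA was at most 0.166 CPM in any library, so this sum was nearly all SYP, a single gene. INSM1 was the gene not in the table. The part of neuroendocrine cells in the ENO2 result was not tested.

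PKM (pyruvate kinase) and LDHA, at the end of the pathway, followed the main pattern, whereas LDHB did not. LDHA, the lactate dehydrogenase subunit that favours lactate formation, stood at 1916, 1898 and 1895 CPM with 2-77, 659, 677 and 694 with ACBI, 1253, 1312 and 1324 with BD98, 1984, 1922 and 1956 with P-16, 1515, 1525 and 1575 with ENZA, and 1385, 1365 and 1359 in DMSO. Libraries of 2-77 and P-16 lay above all others, ENZA libraries were next, and ACBI libraries lay far below DMSO. LDHA rose with 2-77 (0.47 ± 0.031, adjusted p = 2.48e-13), P-16 (0.51 ± 0.031) and ENZA (0.17 ± 0.031), and it fell with ACBI (-1.02 ± 0.031, adjusted p = 3.13e-22). The call with BD98 (-0.08 ± 0.031) was lost without BD98 replicate 1 or DMSO replicate 1, 2 or 3 (adjusted p between 0.0629 and 0.123). That call was also lost with unscaled library totals (-0.015, adjusted p = 0.771) and with no filter (adjusted p = 0.0619). LDHB, the subunit that favours the return of lactate to pyruvate, averaged 351 ± 5.80 CPM with 2-77, 175 ± 7.38 with ACBI, 294 ± 3.14 with BD98, 356 ± 10.6 with P-16, 343 ± 4.74 with ENZA and 351 ± 14.3 in DMSO. LDHB fell with ACBI (adjusted p = 4.65e-20) and BD98 (log2 fold change -0.25 ± 0.037), and with 2-77 its interval was -0.07 to 0.08 log2. PKM changed by 0.33 ± 0.033 with 2-77 and -0.65 ± 0.034 with ACBI.

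The 3 PFKFB genes encode the bifunctional enzymes that set the level of fructose 2,6-bisphosphate, the strongest known activator of phosphofructokinase, and each had its own pattern. PFKFB3, the isoform with the highest kinase activity, stood at 98.9, 95.1 and 96.1 CPM with 2-77, 16.9, 17.96 and 17.4 with ACBI, 36.6, 38.5 and 36.9 with BD98, 71.2, 75.0 and 71.0 with P-16, 37.3, 40.2 and 39.8 with ENZA, and 37.9, 42.1 and 40.3 in DMSO. All 2-77 libraries were above all others, P-16 libraries came second, BD98 and ENZA libraries overlapped DMSO, and ACBI libraries were lowest. PFKFB3 rose with 2-77 (1.27 ± 0.050, adjusted p = 9.90e-19) and P-16 (0.85 ± 0.051) and fell with ACBI (-1.20 ± 0.057, adjusted p = 1.20e-17). PFKFB4 stood at 84.1, 81.1 and 76.9 CPM with 2-77, 52.3, 47.8 and 44.4 with ACBI, 53.0, 57.1 and 56.2 with BD98, 88.8, 91.4 and 89.9 with P-16, 38.8, 36.5 and 36.7 with ENZA, and 42.4, 33.1 and 39.1 in DMSO. P-16 and 2-77 libraries were highest, those of BD98 and ACBI lay between them and DMSO, and ENZA libraries overlapped DMSO. PFKFB4 rose with P-16 (1.24 ± 0.066), 2-77 (1.08 ± 0.066), BD98 (0.54 ± 0.068) and ACBI (0.34 ± 0.068). PFKFB2, the heart-type isoform, stood at 42.8, 41.0 and 41.5 CPM with 2-77, 147, 149 and 149 with ACBI, 46.6, 44.6 and 45.5 with BD98, 44.9, 39.6 and 36.3 with P-16, 42.6, 45.5 and 48.9 with ENZA, and 49.4, 46.0 and 43.1 in DMSO. ACBI libraries stood far above the rest, and 2-77 libraries lay just below DMSO. PFKFB2 rose with ACBI by 1.68 ± 0.059 on the log2 scale (adjusted p = 6.99e-21). Its change with 2-77 (-0.14 ± 0.062) passed only without DMSO replicate 3 (adjusted p = 0.0316). Its fall with P-16 (-0.19 ± 0.063), where the libraries overlapped DMSO, was lost without P-16 replicate 2 or 3 or DMSO replicate 1 or 2 (adjusted p between 0.0678 and 0.206). With ENZA the 3 PFKFB genes did not pass, at -0.03 for PFKFB3, -0.03 for PFKFB4 and -0.01 for PFKFB2.

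**Figure D3:**
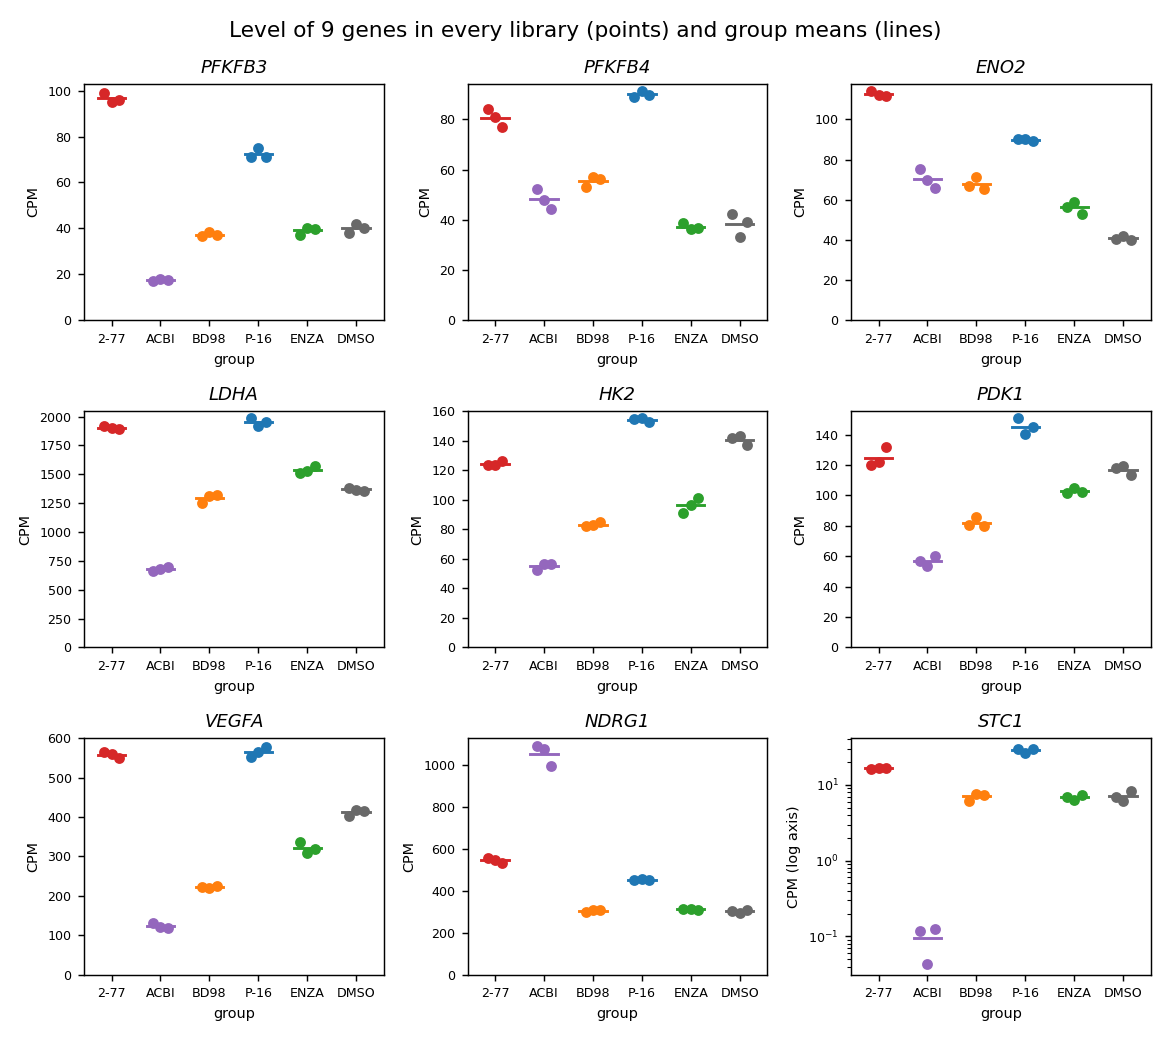
Level in CPM (vertical axes, from 0 except the log axis of STC1) of 9 members in every library (points) with group means (lines), for the 5 compounds and DMSO. PFKFB3, LDHA, VEGFA and STC1 are highest with 2-77 or P-16 and lowest with ACBI, whereas NDRG1 is highest with ACBI.

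The pyruvate dehydrogenase kinases, which block the entry of pyruvate into the citric acid cycle, did not move as a pair. PDK1 stood at 120.1, 122 and 132 CPM with 2-77, 56.8, 53.8 and 59.9 with ACBI, 80.6, 85.7 and 79.6 with BD98, 151, 140.4 and 145 with P-16, 102, 105 and 102 with ENZA, and 118, 119 and 114 in DMSO. P-16 libraries were the highest, 2-77 libraries lay just above DMSO, and the libraries of ENZA, BD98 and ACBI lay below it in that order. PDK1 rose with P-16 (0.31 ± 0.046, adjusted p = 5.11e-06) and fell with ENZA (-0.18 ± 0.046), BD98 (-0.52 ± 0.047) and ACBI (-1.04 ± 0.048). Its change with 2-77 (0.09 ± 0.046) did not pass. PDK3 rose by 0.22 ± 0.051 with 2-77 and 0.25 ± 0.051 with P-16, and its rise with ENZA (0.14 ± 0.051) did not pass without ENZA replicate 2 or 3 or DMSO replicate 1 or 3 (adjusted p between 0.0639 and 0.117).

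The oxygen sensors are themselves HIF targets and so act as a feedback. EGLN3 stood at 25.4, 25.9 and 23.7 CPM with 2-77, 5.79, 5.39 and 5.10 with ACBI, 17.9, 16.1 and 17.5 with BD98, 20.9, 20.9 and 20.4 with P-16, 18.5, 17.6 and 18.7 with ENZA, and 10.5, 11.0 and 10.6 in DMSO. Libraries of 2-77, P-16, ENZA and BD98 were all above DMSO, and ACBI libraries were below it. EGLN3 rose with 2-77 (1.22 ± 0.074, adjusted p = 3.14e-14), P-16 (0.96 ± 0.076), ENZA (0.77 ± 0.076) and BD98 (0.69 ± 0.077), and fell with ACBI (-0.98 ± 0.089, adjusted p = 4.85e-11). EGLN1, the main hydroxylase of HIF1A in many cells, moved otherwise: it rose with ACBI (0.60 ± 0.039), P-16 (0.31 ± 0.040) and 2-77 (0.30 ± 0.040). Its rise with ENZA (0.10 ± 0.040) did not pass without ENZA replicate 1 or 2 or DMSO replicate 1 or 3 (adjusted p between 0.0606 and 0.165).

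The message of HIF1A itself was highest with BD98. It averaged 175 ± 6.95 CPM with 2-77, 149 ± 10.5 with ACBI, 222 ± 8.75 with BD98, 169.8 ± 7.02 with P-16, 183 ± 5.71 with ENZA and 161 ± 7.53 in DMSO (SD, n = 3). HIF1A rose with BD98 (0.47 ± 0.047, adjusted p = 2.39e-09) and ENZA (0.19 ± 0.047). With 2-77 (0.12 ± 0.047) the libraries overlapped DMSO, and the call was lost without 2-77 replicate 1 or 3 or DMSO replicate 1 or 3 (adjusted p between 0.0779 and 0.189). With ACBI (-0.11 ± 0.047) they overlapped too, and the call was lost without ACBI replicate 1 or 2 or DMSO replicate 1 or 2 (adjusted p between 0.0644 and 0.219). DESeq2 called neither (adjusted p = 0.0697 with 2-77 and 0.0601 with ACBI).

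Of the 11 further HIF targets, 10 rose with 2-77 and 10 with P-16, 4 rose and 5 fell with ACBI, 3 rose and 3 fell with BD98, and 5 rose and 2 fell with ENZA. VEGFA, the growth factor of blood vessels, stood at 565, 559.9 and 551 CPM with 2-77, 131, 119.7 and 117 with ACBI, 224, 221 and 225 with BD98, 552, 566 and 578 with P-16, 337, 308 and 318 with ENZA, and 404, 417 and 415 in DMSO. Libraries of 2-77 and P-16 were above DMSO and those of ENZA, BD98 and ACBI were below it, with no overlap. VEGFA rose with 2-77 (0.44 ± 0.039, adjusted p = 2.06e-10) and P-16 (0.46 ± 0.039) and fell with ENZA (-0.36 ± 0.039), BD98 (-0.89 ± 0.040) and ACBI (-1.75 ± 0.041, adjusted p = 2.97e-25). BNIP3, a mitochondrial protein that marks mitochondria for removal, fell with BD98 (-0.69 ± 0.044) and ACBI (-0.61 ± 0.044) and rose with 2-77 (0.49 ± 0.044) and P-16 (0.53 ± 0.044). Its fall with ENZA (-0.14 ± 0.044) did not pass without ENZA replicate 3 or DMSO replicate 1 (adjusted p between 0.0549 and 0.0659).

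CA9 (carbonic anhydrase IX), which acidifies the outside of hypoxic cells, was near the limit of detection. Its counts were 53, 19 and 29 with 2-77, 0, 0 and 0 with ACBI, 12, 12 and 12 with BD98, 23, 19 and 10 with P-16, 9, 15 and 6 with ENZA, and 5, 2 and 3 in DMSO. In CPM these were 1.72, 0.820 and 1.18 CPM with 2-77, 0, 0 and 0 with ACBI, 0.515, 0.684 and 0.402 with BD98, 0.936, 0.883 and 0.558 with P-16, 0.423, 0.407 and 0.278 with ENZA, and 0.291, 0.101 and 0.134 in DMSO. It was found in every library but the 3 with ACBI. CA9 rose with 2-77 (2.86 ± 0.46, adjusted p = 1.11e-05) and P-16 (2.22 ± 0.50). Its rise with BD98 (1.58 ± 0.53) did not pass without BD98 replicate 2 or DMSO replicate 2 or 3 (adjusted p between 0.0555 and 0.0735). With ENZA (1.12 ± 0.55) the libraries overlapped DMSO, and CA9 did not pass. With ACBI it was 4.09-fold lower than in DMSO and 31.2-fold lower than with 2-77, taking 3 counts over the group as the floor. For the observed counts, the 95% exact counting intervals of these ratios began at 2.75 and 24.9 and had no upper end. STC1 (stanniocalcin), a secreted glycoprotein, stood at 16.3, 16.9 and 16.7 CPM with 2-77, 0.117, 0.0435 and 0.124 with ACBI, 6.18, 7.52 and 7.43 with BD98, 29.4, 26.5 and 30.0 with P-16, 6.90, 6.29 and 7.27 with ENZA, and 6.87, 6.07 and 8.38 in DMSO. P-16 libraries were the highest, 2-77 libraries came next, BD98 and ENZA libraries overlapped DMSO, and ACBI libraries were close to 0. STC1 rose with P-16 (2.00 ± 0.10, adjusted p = 2.11e-15) and 2-77 (1.22 ± 0.10). The 3 ACBI libraries held 7 counts in all, against 426 in DMSO, a level 74.7-fold lower (95% exact counting interval 35.9 to 187).

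ADM, NDRG1, P4HA2 and ANKRD37 broke the opposite pattern. ADM (adrenomedullin), a peptide that widens vessels, stood at 3.18, 4.71 and 3.09 CPM with 2-77, 1.71, 2.48 and 2.03 with ACBI, 2.15, 3.08 and 2.78 with BD98, 1.79, 2.00 and 1.95 with P-16, 2.68, 2.39 and 2.59 with ENZA, and 1.28, 1.01 and 1.07 in DMSO. Every treated library was above the 3 DMSO libraries. ADM rose with 2-77 (1.70 ± 0.22, adjusted p = 2.62e-07), BD98 (1.25 ± 0.23), ENZA (1.19 ± 0.23) and ACBI (0.89 ± 0.24). Its rise with P-16 (0.77 ± 0.24) did not pass without P-16 replicate 2 or DMSO replicate 2 or 3 (adjusted p between 0.0584 and 0.0747). NDRG1, a stress protein known to respond to androgen as well as to hypoxia, stood at 554, 548 and 530.2 CPM with 2-77, 1088, 1074 and 993 with ACBI, 299.9, 308 and 309 with BD98, 449, 453 and 450.4 with P-16, 314, 314 and 308 with ENZA, and 303, 295 and 310.2 in DMSO. ACBI libraries were the highest, those of 2-77 and P-16 followed, and BD98 and ENZA libraries overlapped DMSO. NDRG1 rose with ACBI (1.80 ± 0.037, adjusted p = 1.26e-26), 2-77 (0.85 ± 0.036) and P-16 (0.57 ± 0.036). ANKRD37, an ankyrin repeat protein, stood at 4.96, 4.84 and 3.98 CPM with 2-77, 20.6, 17.0 and 19.2 with ACBI, 6.48, 6.32 and 4.32 with BD98, 5.61, 6.83 and 6.98 with P-16, 3.90, 5.34 and 4.63 with ENZA, and 4.60, 6.88 and 5.88 in DMSO. ACBI libraries stood clear and the other groups overlapped DMSO. ANKRD37 rose with ACBI (1.70 ± 0.15, adjusted p = 5.08e-11), and no other compound passed, although its change with 2-77 (-0.34 ± 0.16) did without DMSO replicate 1 (adjusted p = 0.0345).

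The collagen prolyl hydroxylase subunits P4HA1 and P4HA2, the mitophagy receptor BNIP3L and the histone demethylase KDM3A all rose with 2-77 and P-16. With 2-77 the log2 fold changes were 0.36 ± 0.048 for P4HA1, 0.92 ± 0.070 for P4HA2, 0.49 ± 0.094 for BNIP3L and 0.57 ± 0.046 for KDM3A. With ACBI, P4HA2 rose (0.78 ± 0.070), P4HA1 fell (-0.16 ± 0.049), and BNIP3L (-0.02 ± 0.094) and KDM3A (-0.07 ± 0.047) did not pass. With ENZA, KDM3A (0.28 ± 0.046) and P4HA2 (0.29 ± 0.072) rose. The ENZA call of P4HA1 (0.15 ± 0.048) was lost without ENZA replicate 3 or DMSO replicate 3 (adjusted p between 0.0514 and 0.0915). The ENZA call of BNIP3L (0.28 ± 0.094) was lost without ENZA replicate 1, 2 or 3 or DMSO replicate 1, 2 or 3 (adjusted p between 0.0504 and 0.101).

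2-77 and ENZA differed in few genes of the whole table, yet in most members. In the direct comparison, 29 of 38 members were higher with 2-77 than with ENZA and none was lower, whereas 5.54% of all genes tested passed, 2.94% upward and 2.60% downward. At an unadjusted p under 0.05 the members were 31 higher and 1 lower, and DESeq2 called 29 higher and 0 lower. The median member difference was 0.30 log2. The largest were CA9 (1.74 ± 0.37), PFKFB3 (1.30 ± 0.049, adjusted p = 1.60e-17), STC1 (1.29 ± 0.10), PFKFB4 (1.11 ± 0.065) and ENO2 (1.00 ± 0.049). VEGFA (0.80 ± 0.039), NDRG1 (0.80 ± 0.036), SLC16A3 (0.77 ± 0.066) and PGK1 (0.73 ± 0.031) followed. PFKM, PGAM1, LDHB, PFKFB2, PDK3, HIF1A, ADM, BNIP3L and ANKRD37 did not pass. CA9 did not pass without 2-77 replicate 1 (adjusted p = 0.0663). HK1 (0.15 ± 0.039) did not pass without 2-77 replicate 1 or 2 or ENZA replicate 1 or 2 (adjusted p between 0.0791 and 0.114). PFKL (0.15 ± 0.041) did not pass without 2-77 replicate 1 or 2 or ENZA replicate 1, 2 or 3 (adjusted p between 0.0614 and 0.208).

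P-16 and ENZA were given at the same dose. Between them, 27 members were higher with P-16 and 2, PFKM and PFKFB2, were lower, where 21.4% of all genes passed, 11.0% upward and 10.3% downward. The median member difference was 0.35 log2. STC1 (2.08 ± 0.099), PFKFB4 (1.27 ± 0.065), SLC16A3 (0.89 ± 0.066), PFKFB3 (0.89 ± 0.050) and VEGFA (0.82 ± 0.039) differed most among those that passed. PFKM (-0.10 ± 0.033) did not pass without P-16 replicate 1 or 3 or ENZA replicate 1 or 3 (adjusted p between 0.0550 and 0.111). PFKFB2 (-0.18 ± 0.062) did not pass without P-16 replicate 2 or 3 or ENZA replicate 2 or 3 (adjusted p between 0.0897 and 0.265). P4HA1 (0.15 ± 0.048) did not pass without P-16 replicate 1 or ENZA replicate 1, 2 or 3 (adjusted p between 0.0527 and 0.127). ANKRD37 (0.46 ± 0.16) did not pass without P-16 replicate 2 or 3 or ENZA replicate 1 or 3 (adjusted p between 0.105 and 0.163). CA9 (1.09 ± 0.40), which did not pass with all libraries, passed without P-16 replicate 3 (adjusted p = 0.0458).

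**Figure D4:**
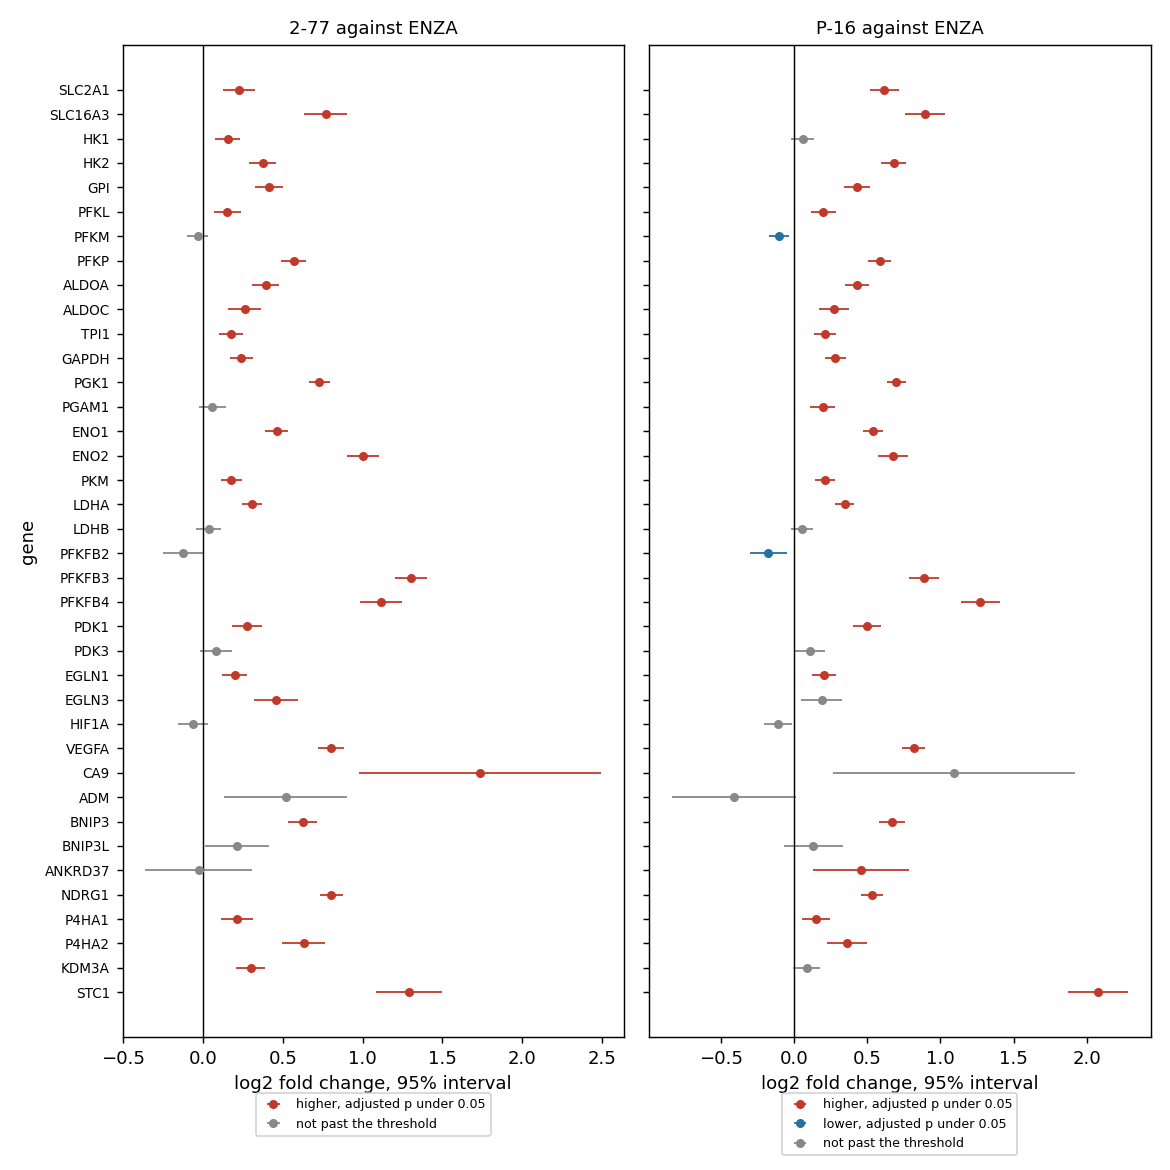
log2 fold change with its 95% interval (horizontal axes) of the 38 members (rows) between 2-77 and ENZA (left) and between P-16 and ENZA (right), from edgeR. Most points lie right of 0, 29 members passing upward in the left panel and 27 in the right.

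2-77 and P-16, given at different doses, differed in 13 of the 38 members. Of these, 7 were higher with 2-77 and 6 were lower, where 22.4% of all genes passed, 10.6% upward and 11.8% downward, and the median difference was -0.02 log2. Higher with 2-77 were ADM (0.93 ± 0.20), PFKFB3 (0.42 ± 0.047, adjusted p = 9.85e-08), ENO2 (0.33 ± 0.048), EGLN3 (0.27 ± 0.067), NDRG1 (0.27 ± 0.036), P4HA2 (0.27 ± 0.066) and KDM3A (0.21 ± 0.045). Lower with 2-77 were STC1 (-0.78 ± 0.090), SLC2A1 (-0.39 ± 0.048), HK2 (-0.31 ± 0.041) and PDK1 (-0.22 ± 0.045). Lower too were ANKRD37 (-0.48 ± 0.16) and PGAM1 (-0.14 ± 0.041). ANKRD37 did not pass without 2-77 replicate 3 or P-16 replicate 2 or 3 (adjusted p between 0.110 and 0.125). PGAM1 did not pass without 2-77 replicate 3 or P-16 replicate 2 (adjusted p between 0.0785 and 0.0832), nor with unscaled library totals (0.139). Members that did not pass may still differ within their 95% intervals, for VEGFA -0.10 to 0.06 log2 and for LDHA -0.10 to 0.03.

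Against ACBI, 33 members were higher with 2-77 and 5 lower (HK1, PFKFB2, EGLN1, ANKRD37 and NDRG1), where 70.2% of all genes passed, 36.8% upward and 33.4% downward. P4HA2 (0.14 ± 0.064) did not pass without 2-77 replicate 2 or 3 or ACBI replicate 2 or 3 (adjusted p between 0.0762 and 0.171). Its call was also lost with DESeq2, RLE factors, no filter, no ribosomal RNA genes and only the groups compared (adjusted p between 0.0716 and 0.104). Same-numbered libraries of 2-77 and ACBI deviated together, and with the replicate number as a block 32 were higher and 5 lower. STC1 had 1304 counts with 2-77 against 7 with ACBI, a level 173-fold higher (95% exact counting interval 83.6 to 430). CA9 was 31.2-fold higher at the floor of 3 counts, with an interval from 24.9, as given above. After these 2 came PFKFB3 (2.47 ± 0.053), EGLN3 (2.20 ± 0.079), VEGFA (2.18 ± 0.041) and PFKP (1.69 ± 0.040). Against BD98, 31 members were higher with 2-77 and 1, HIF1A (-0.34 ± 0.046), was lower, where 42.0% of all genes passed, 20.7% upward and 21.3% downward. PFKFB3 (1.38 ± 0.049), VEGFA (1.32 ± 0.040), CA9 (1.28 ± 0.36), STC1 (1.24 ± 0.10), BNIP3 (1.18 ± 0.044) and P4HA2 (1.06 ± 0.069) differed by more than 1 log2 unit. CA9 did not pass without 2-77 replicate 1 (adjusted p = 0.0710), and SLC2A1 (0.15 ± 0.049) did not pass without 2-77 replicate 2 (adjusted p = 0.0639). SLC2A1, HK1 and TPI1 did not pass with unscaled library totals.

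A set of 8 members rose with all of 2-77, BD98, P-16 and ENZA (HK1, ALDOC, TPI1, PGAM1, ENO2, EGLN3, ADM and KDM3A), a pattern that 5.43% of all genes tested showed. Of these, HK1 and ADM lost a call when a library was left out, as given above. These 4 comparisons share the DMSO libraries.

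Other genes of these pathways, from lists chosen with earlier results of these data known, are described by their counts. Of all genes tested, 40.7% passed with 2-77, 72.0% with ACBI, 49.0% with BD98, 24.0% with P-16 and 36.3% with ENZA. Of 42 further HIF targets, 39 were tested, and the shares that passed were 76.9%, 79.5%, 53.8%, 74.4% and 53.8% in that order. With 2-77, 26 rose and 4 fell (median log2 fold change 0.28), and with P-16, 28 rose and 1 fell (0.26). With ACBI 16 rose and 15 fell (-0.03), with BD98 6 rose and 15 fell (-0.08), and with ENZA 10 rose and 11 fell (0.00), or 8 rose and 7 fell without ENZA replicate 2. CA12, another carbonic anhydrase, averaged 47.7 ± 1.12 CPM with 2-77, 2.51 ± 0.394 with ACBI and 30.5 ± 0.896 in DMSO, with log2 fold changes of 0.64 ± 0.055 with 2-77 and -3.60 ± 0.083 with ACBI. It also rose with P-16 (0.61 ± 0.056) and ENZA (0.55 ± 0.056), and its rise with BD98 (0.16 ± 0.057) did not pass without BD98 replicate 1, 2 or 3 or DMSO replicate 1 or 3 (adjusted p between 0.0556 and 0.0908). DDIT4, a stress-induced brake on mTOR, fell with ACBI (-1.99 ± 0.035), BD98 (-1.28 ± 0.034), ENZA (-0.30 ± 0.034) and 2-77 (-0.22 ± 0.033). It rose with P-16 (0.13 ± 0.033), a call lost with unscaled library totals (adjusted p = 0.0559). TFRC, the transferrin receptor, rose with 2-77 (0.40 ± 0.042), ENZA (0.29 ± 0.042), P-16 (0.28 ± 0.042) and BD98 (0.18 ± 0.042) and fell with ACBI (-0.92 ± 0.043). IGFBP3, which binds insulin-like growth factors, rose with ACBI (1.75 ± 0.084) and 2-77 (0.61 ± 0.089) and did not pass with the other compounds, although it did with P-16 without P-16 replicate 2 (adjusted p = 0.0341).

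Of the machinery of the HIF pathway (14 genes, 13 tested), 7 rose and 1 fell with 2-77, and 10 rose and 1 fell with ACBI. With BD98 5 rose and 1 fell, and 4 rose with each of P-16 and ENZA. The shares that passed were 61.5%, 84.6%, 46.2%, 30.8% and 30.8% in that order. Those of all genes tested were 40.7%, 72.0%, 49.0%, 24.0% and 36.3%. CITED2, which competes with HIF for its coactivator, averaged 74.5 ± 0.897 CPM with 2-77, 429 ± 13.1 with ACBI and 59.5 ± 1.98 in DMSO, a rise of 2.85 ± 0.043 log2 with ACBI (adjusted p = 1.17e-29). It rose less with ENZA (0.39 ± 0.044) and 2-77 (0.33 ± 0.044). Its rise with P-16 (0.16 ± 0.044) did not pass without P-16 replicate 1 or DMSO replicate 3 (adjusted p between 0.0572 and 0.0605), and its fall with BD98 (-0.17 ± 0.045) did not pass with unscaled library totals. EPAS1 (HIF-2 alpha) was low, at 3.81 ± 0.386 CPM with 2-77, 6.87 ± 0.476 with ACBI and 1.51 ± 0.175 in DMSO, and rose with both and with ENZA (1.13 ± 0.21). ARNT, the partner subunit of HIF alpha, rose with BD98 (0.55 ± 0.051), 2-77 (0.45 ± 0.051), ENZA (0.38 ± 0.051) and ACBI (0.34 ± 0.051), and its rise with P-16 (0.17 ± 0.051) did not pass without P-16 replicate 2 or DMSO replicate 2 or 3 (adjusted p between 0.0579 and 0.104). ARNT2, a related partner, fell with ACBI (-0.86 ± 0.072) and rose with BD98 (0.45 ± 0.067), 2-77 (0.40 ± 0.067) and ENZA (0.24 ± 0.067). Its rise with P-16 (0.25 ± 0.068) did not pass without P-16 replicate 3 (adjusted p = 0.0575).

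Further genes of glucose use were split with each compound. Of 36 listed, 22 were tested. With 2-77 5 rose and 7 fell, with ACBI 10 rose and 7 fell, and with BD98 8 rose and 10 fell. With P-16 3 rose and 4 fell, and with ENZA 4 rose and 6 fell. The shares that passed were 54.5%, 77.3%, 81.8%, 31.8% and 45.5% in that order. Those of all genes tested were 40.7%, 72.0%, 49.0%, 24.0% and 36.3%. MPC2, a subunit of the carrier that brings pyruvate into mitochondria, averaged 145 ± 2.51 CPM with 2-77, 658 ± 42.8 with ACBI, 153 ± 4.04 with BD98, 245 ± 7.66 with P-16, 164 ± 4.52 with ENZA and 394 ± 10.6 in DMSO. It fell with 2-77 (-1.44 ± 0.042, adjusted p = 5.53e-22), BD98 (-1.36 ± 0.042), ENZA (-1.26 ± 0.041) and P-16 (-0.68 ± 0.041), and rose with ACBI (0.74 ± 0.041). SLC16A1 (MCT1), another lactate carrier, fell with ACBI (-1.97 ± 0.038), BD98 (-0.75 ± 0.036) and ENZA (-0.18 ± 0.036) and rose with P-16 (0.16 ± 0.036). BPGM, which makes 2,3-bisphosphoglycerate, rose with ACBI (1.19 ± 0.058) and BD98 (0.32 ± 0.060), and did not pass with the other compounds with all libraries. PGM1, which links glycogen to glycolysis, rose with all 5 compounds, by 0.88 ± 0.045 with ACBI, 0.53 ± 0.046 with 2-77, 0.44 ± 0.046 with P-16, 0.37 ± 0.046 with BD98 and 0.21 ± 0.046 with ENZA.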

How the data were processed

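The deposited table holds estimated counts (expected counts with decimals, not scaled to depth) per gene for 18 libraries. The submitters' processing notes name STAR, Partek, DESeq2 and build hg38. Versions, the annotation, strand use in counting and filters are not given in the sources used here. SCO277 columns were read as 2-77 and PB_16 columns as P-16, by name, and 0 sample columns stayed unused. After rounding, edgeR 4.0.16 (R 4.3.3) was used: filterByExpr (minimum count 10) kept 15422 of 20145 genes, with TMM scaling, a robust quasi-likelihood fit of all 6 groups (12 residual degrees of freedom) and Benjamini-Hochberg adjustment over all genes tested (threshold 0.05). CPM uses TMM-scaled library sizes. The fit was tested on simulated data. Some luminal markers are not reported here. The members, the further gene lists and the roles were chosen with earlier results of these data known. Values per library are given for members that passed with an absolute log2 fold change of at least 1 against DMSO. From each further list, up to 4 passing genes with the smallest p are named. Among opposite movers of 2-77 and ACBI with a RefSeq window, the largest gaps between the 2 compounds picked the promoters of CA9, PFKFB3, EGLN3 and PFKP. Those of EGLN3 and PFKP, without a match, are not printed, and LDHA and PGK1 were added for their matches. Motifs were counted in RefSeq windows, and figures drawn with matplotlib 3.10.9 in Python 3.11.15. Alternatives were DESeq2 1.42.0, RLE factors, library totals, no filter, a minimum count of 50, a replicate block, only the groups compared, no ribosomal RNA genes, and each library left out. Counting intervals and floors include no error beyond that of counting. Same-numbered libraries were not treated as paired. Those of 2-77 and ACBI deviated together. Over 10279 genes with at least 10 CPM, the 3 correlations of their deviations lay between 0.278 and 0.585. No other pair of groups had all 3 over 0.1, but BD98 and DMSO had 2 (highest 0.264) and some other pairs had 1.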

Additional observations from a re-analysis of the deposited data

How the results depend on the processing

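Counts of members that passed stayed within 1.5 times those reported under the alternatives run, which kept the adjusted p as the only threshold. Of 2839 alternative values of single members against DMSO, 2735 stayed on their side of the threshold, 87 lost a pass, 17 gained one and 0 reversed. Most passes were of less than 1.5-fold, except with ACBI. When a fold of at least 1.5 was also required, 10 members rose and 0 fell with 2-77, and 9 rose and 0 fell with P-16. With ACBI 8 rose and 16 fell, with BD98 4 rose and 3 fell, and with ENZA 2 rose and 0 fell. Against ENZA, 11 members were then higher with 2-77 and 11 with P-16. The 19 opposite movers of 2-77 and ACBI came down to 4 when both folds had to reach 1.5, and leaving out a library gave 18 to 19. Other alternatives for that count, and the block in fits of only the groups compared, were chosen after seeing the data. With unscaled library totals the summed enzyme level was 15158 CPM with BD98 and 20003 CPM with P-16, against 14559 and 20243 with TMM. Leaving out each library in turn gave 32 to 33 members passing with 2-77, 32 to 33 with ACBI, 20 to 21 with BD98, 31 to 34 with P-16 and 19 to 23 with ENZA, and 37 to 38, 31 to 34, 11 to 13, 26 to 29 and 25 to 27 in the comparisons of 2-77 with ACBI, BD98, P-16 and ENZA and of P-16 with ENZA. For 12 further pathway genes, 881 of the alternative values kept their call, 13 lost it and 6 gained it.

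With the replicate number as a block, 31 members rose and 1 fell with 2-77, 10 rose and 23 fell with ACBI, 13 rose and 10 fell with BD98, 33 rose and 1 fell with P-16, and 18 rose and 7 fell with ENZA. The block ended the calls of HIF1A with 2-77 (adjusted p = 0.0513) and BNIP3L with ENZA (0.0536) and, between 2-77 and ACBI, that of P4HA2 (0.0564). In blocked fits of only the groups compared, HIF1A with 2-77 (0.0646) and with ACBI (0.119), BNIP3L between 2-77 and BD98 (0.164), PFKFB2 between P-16 and ENZA (0.105) and P4HA2 between 2-77 and ACBI (0.0710) did not pass, and 30 members were higher with P-16 than with ENZA. Across all genes tested, correlations of same-numbered libraries of different groups had a median of -0.0011 over 45 pairs, 1 of them over 0.1. Over genes with at least 10 CPM, BD98 and DMSO had 2 of 3 over 0.1 (highest 0.264). Numbers other than those of 2-77 and ACBI were taken as names, but these correlations cannot exclude a pairing.

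Limits are the single cell line and time, the unmatched doses, the unknown source of the replicates, unstated handling of reads shared with pseudogenes or overlapping genes, and RNA as the only readout. CA9 is so low that a few counts set its fold changes. ADM (66 counts over the DMSO libraries) and EPAS1 are low too. Leaving out ACBI replicate 3, the library with the most ribosomal RNA, left 10 members up and 23 down with ACBI.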
